A study of Mus musculus with 12 samples.

Results

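Tumours of mice that were chronically stressed and given a low dose of Xiao-chai-hu decoction were compared with tumours of control mice, using the 3 libraries labelled for the low dose and the 3 labelled as control, which are 6 of the 12 RNA sequencing libraries of the study. Xiao-chai-hu decoction is a traditional Chinese herbal formula. Mice of all groups carried subcutaneous colorectal tumours, and the tumour tissue was sequenced. Control mice had the tumour alone, stressed mice had chronic stress as well, and mice of the low-dose and high-dose groups had the tumour, chronic stress and the decoction. The low-dose and control groups therefore differ in stress and in treatment at once, and these cannot be told apart in this contrast alone. Values of the 3 stress libraries and the 3 high-dose libraries are given beside those of the compared groups where they bear on a gene. The labels used here give no dose in numbers, no mouse strain, sex or age, no tumour line and no stress protocol. Nothing in them says that the 3 replicates of a group are separate animals, so the p-values speak only for the spread among these libraries, which may be technical.

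A subcutaneous tumour is a mixture of tumour cells with macrophages, dendritic cells, lymphocytes, fibroblasts and vessels, and bulk RNA sequencing reads all of them together. Dendritic cells take up tumour material and show it to helper T cells on MHC class II molecules, whose genes are switched on by the transactivator Ciita. Macrophages take up and digest dead cells in lysosomes, and chronic stress reaches a tumour mainly through glucocorticoids and catecholamines, which act on nuclear and adrenergic receptors.

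Total estimated counts ran from 16734741 to 17950195 per library, and 13453 genes had enough counts to be tested. Levels are given as CPM, counts scaled to the size of the library, and differences as log2 fold changes, low dose minus control, with their standard error (SE) from edgeR's quasi-likelihood fit, so that a positive value means higher in the low-dose tumours. Most listed markers of gut epithelium were near absent, but not all. Of the 15 listed genes that could be matched, 4 passed the filter on counts (Cdh1, Lgals4, Muc2 and Sox9). Epcam had at most 0.813 CPM, Krt8 at most 0.115 CPM and Krt18 at most 0.0586 CPM in any of the 12 libraries. The 3 low-dose libraries differed from each other much more than the 3 control libraries did: the dispersion index of a pair, the mean over genes of the chi-square of its counts, was 6.55 to 9.52 among controls and 53.9 to 80.9 among low-dose libraries. Control replicate 1 and low-dose replicate 3 held the most skeletal muscle transcripts of the 6, with 64.2 and 52.0 CPM of the actin gene Acta1 against at most 4.98 CPM in the others.

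No gene passed an adjusted p of 0.05 between low dose and control in edgeR's quasi-likelihood test; the smallest adjusted p was 0.115. At an unadjusted p under 0.05, 868 genes were higher and 905 lower in the low-dose tumours (6.45% and 6.73% of those tested). The 3 low-dose libraries all lay above the 3 control libraries for 1029 genes (7.65%) and all below for 1310 genes (9.74%). By DESeq2, 68 genes passed (0.505% of the genes tested), 32 higher and 36 lower, and by limma-voom with quality weights none passed, with 1716 at an unadjusted p under 0.05. Without low-dose replicate 1, edgeR called 652 genes (4.78% of the 13636 then tested), 339 higher (2.49%) and 313 lower (2.3%). With the trend of each library with transcript length removed as well, that count was 0. The genes named next are the 10 in each direction with the smallest unadjusted p. They were taken from those with separated groups and a mean FPKM of 1 or more in the higher group. None of these 20 passed the adjusted threshold in edgeR's fit of all libraries. All 20 passed by DESeq2, and all 20 by edgeR without low-dose replicate 1, though none with the length trend removed as well. They were chosen by p in these same libraries, which favours such calls.

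The gene with the smallest p was Dnase1l3 (chr14:7965187-7994760, GRCm38.p6), which encodes a secreted nuclease that digests DNA shed by dying cells and is made mainly by dendritic cells and macrophages. It had 4.10, 3.49 and 3.96 CPM in the control libraries and 0.562, 0.0575 and 0.241 CPM in the low-dose libraries. All 3 low-dose libraries were far below every control library, and in replicate 2 the gene was almost absent. The log2 fold change was -3.71 (SE 0.55), with an adjusted p of 0.115 by edgeR. The stress libraries had 4.72, 3.32 and 2.29 CPM and the high-dose libraries 2.50, 3.76 and 1.63 CPM, so each of these 6 was above every low-dose library. Against the high dose the low dose differed by -3.16, with an unadjusted p of 9.17e-05 and an adjusted p of 0.549 by edgeR. This rests on few reads, 196 counts in the 3 controls and 15 in the 3 low-dose libraries.

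Tlr12, which encodes a Toll-like receptor of innate immune cells, had a level too low for the naming rule and is named after its values were seen. It had 2.17, 2.85 and 2.64 CPM in controls and 0.562, 0.345 and 0.421 CPM under the low dose, a log2 fold change of -2.51 (SE 0.38) with an adjusted p of 0.115 by edgeR. As with Dnase1l3, the 3 stress libraries (3.73, 2.21 and 1.83 CPM) and the 3 high-dose libraries (1.72, 2.94 and 1.86 CPM) all lay above the low-dose range.

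Notch3, the Notch receptor best known from pericytes and vascular smooth muscle, had 12.3, 11.3 and 11.7 CPM in controls and 8.26, 6.50 and 5.18 CPM under the low dose. The groups did not overlap, and the stress (15.3, 13.4 and 13.1 CPM) and high-dose libraries (14.8, 11.5 and 12.2 CPM) were within or above the control range. Its log2 fold change was -0.82 (SE 0.18). Itga6, the laminin-binding integrin alpha 6 chain, had 54.5, 62.2 and 54.6 CPM in controls, 42.6, 32.8 and 27.9 CPM under the low dose, and a log2 fold change of -0.73 (SE 0.16). Every low-dose library was below every library of the other 3 groups for Itga6. Etl4, the sickle tail gene first described in disc development, had 53.1, 50.4 and 55.6 CPM in controls and 35.7, 28.8 and 28.8 CPM under the low dose, a difference of -0.77 (SE 0.12). Low-dose replicates 2 and 3 were nearly equal and replicate 1 lay somewhat nearer the controls. Tbc1d8, which encodes a protein with a Rab GTPase-activating domain, had 11.8, 14.4 and 13.9 CPM in controls and 8.37, 7.24 and 6.44 CPM under the low dose, a difference of -0.86 (SE 0.15). Syne2, the giant nuclear envelope protein nesprin-2, had 137, 146 and 137 CPM in controls and 99.4, 68.2 and 95.5 CPM under the low dose, a difference of -0.67 (SE 0.14). Replicate 2 was the lowest of the low-dose libraries for Syne2, and the groups stayed apart. Sfmbt2, a Polycomb-associated repressor, differed by -0.52 (SE 0.11) with groups that also stayed apart.

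For 3 of the lower genes the stressed mice without decoction were already low. Rasgef1a, an exchange factor for Ras-family GTPases, had 5.21, 4.88 and 6.31 CPM in controls, 1.92, 2.62 and 1.37 CPM under stress, 1.35, 2.36 and 1.20 CPM under the low dose and 2.44, 2.35 and 3.08 CPM under the high dose. All libraries of the 3 stressed groups were below every control, and the low-dose and stress ranges overlapped. Its log2 fold changes were -1.73 (SE 0.32) for low dose against control, -1.47 for stress against control, -1.06 for high dose against control and -0.27 for low dose against stress. Mgat3, the enzyme that adds the bisecting N-acetylglucosamine to N-glycans, had 154, 155 and 188 CPM in controls, 102, 108 and 126 CPM under stress, 118, 109 and 113 CPM under the low dose and 126, 120.1 and 120.1 CPM under the high dose. Again the stress and low-dose values overlapped, and all 3 stressed groups lay below the controls. The log2 fold change of the low dose was -0.55 (SE 0.11) against control and 0.01 against stress, and that of the high dose against control was -0.44. Rap1gap2, a GTPase-activating protein for Rap1, had 69.9, 67.8 and 66.7 CPM in controls, 43.4, 38.99 and 29.8 CPM under stress, 33.3, 24.1 and 31.7 CPM under the low dose and 31.8, 70.6 and 55.8 CPM under the high dose. The 3 controls were tightly grouped and high, while the high-dose libraries spread over the whole range. These contrasts share libraries, so their values are not independent of each other.

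**Figure D1:**
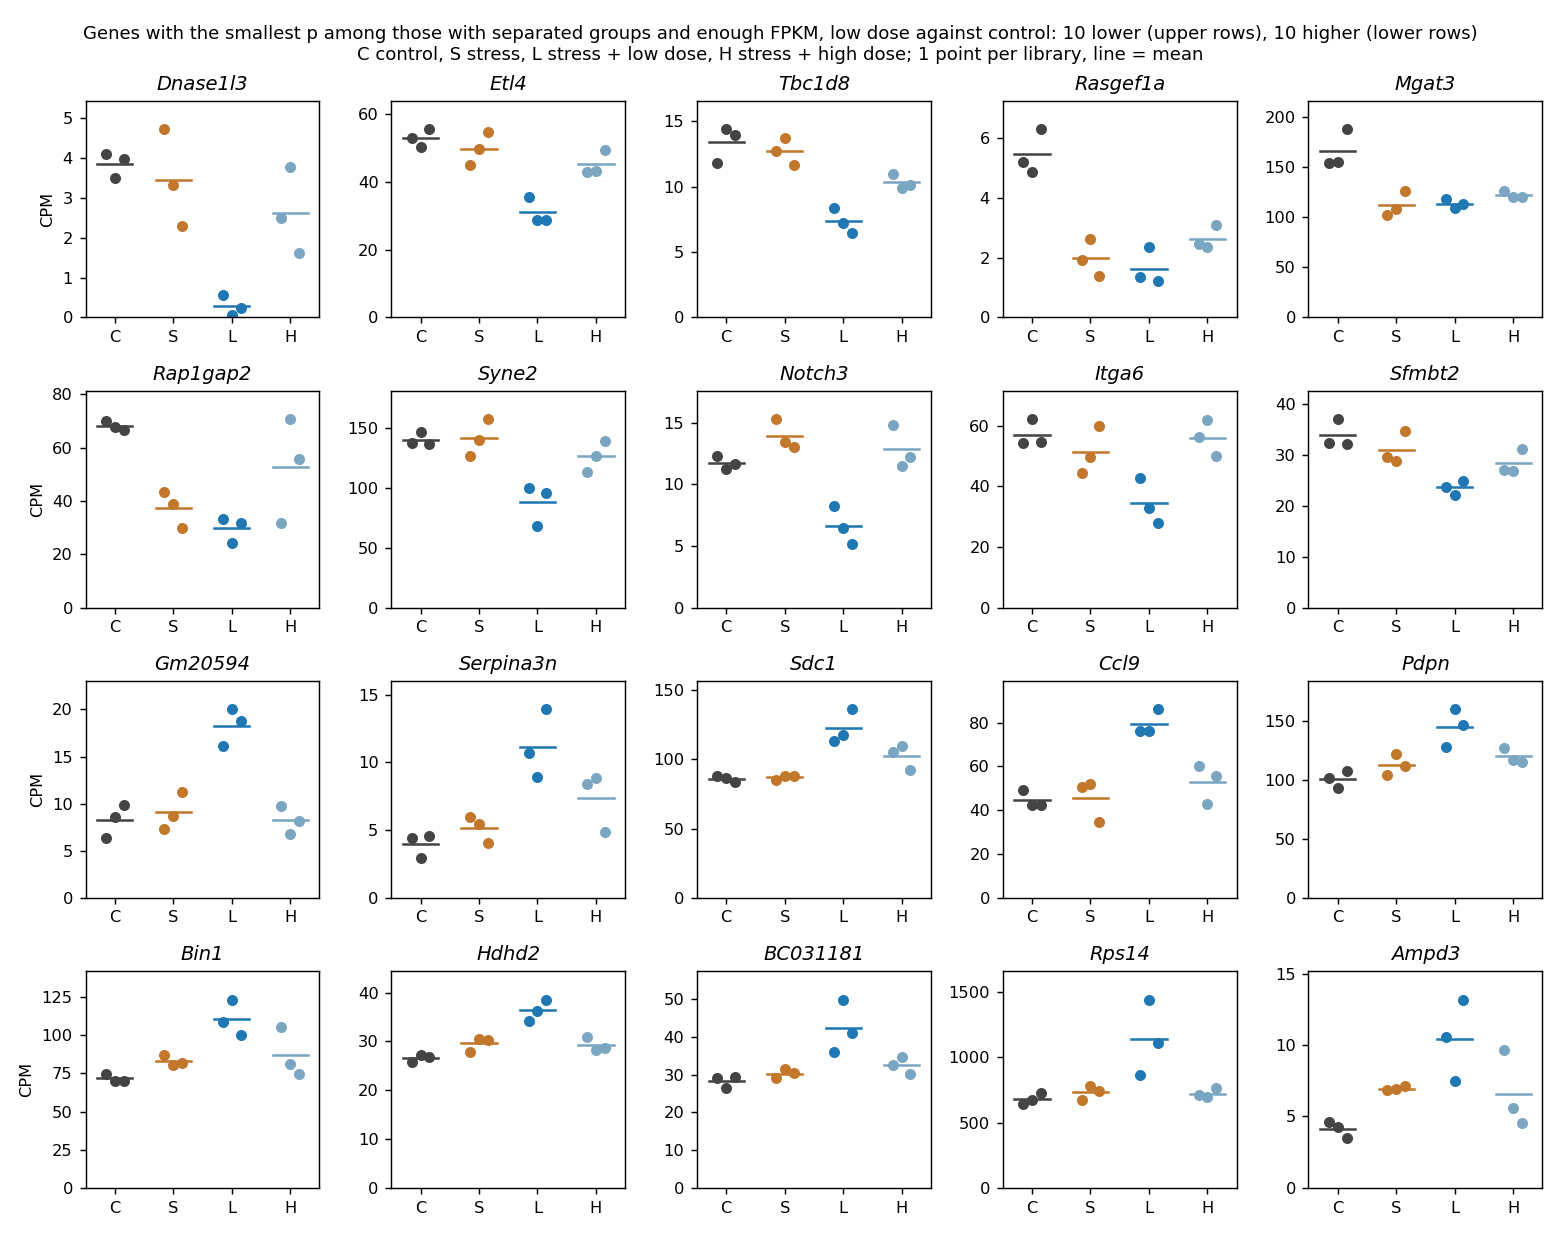
Expression in CPM (vertical axes, starting at 0) of the 20 genes with the smallest p for low dose against control among those with separated groups and a mean FPKM of 1 or more in the higher group, with 1 point per library and a line at the mean, in control (C), stress (S), stress with low dose (L) and stress with high dose (H). The low-dose libraries lie wholly below the controls for the 10 genes of the upper rows and wholly above for the 10 genes of the lower rows; for Rasgef1a, Mgat3 and Rap1gap2 the stress libraries are low as well.

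Among the 10 higher genes, 4 encode secreted or cell-surface proteins. Serpina3n, a secreted serine protease inhibitor of the acute phase, had 4.39, 2.96 and 4.56 CPM in controls and 10.7, 8.91 and 13.9 CPM under the low dose. Every low-dose library was far above every control, and the log2 fold change was 1.49 (SE 0.28). Ccl9, a chemokine that attracts myeloid cells through the receptor Ccr1, had 49.3, 42.4 and 42.2 CPM in controls and 76.3, 76.1 and 86.1 CPM under the low dose, a difference of 0.83 (SE 0.16). Stress (50.4, 51.99 and 34.4 CPM) and high-dose libraries (60.4, 42.98 and 55.7 CPM) stayed below every low-dose library for Ccl9. Sdc1, the heparan sulphate proteoglycan syndecan-1, had 88.01, 86.5 and 83.6 CPM in controls and 113, 118 and 136 CPM under the low dose, a difference of 0.51 (SE 0.10). Pdpn, the mucin-like membrane protein podoplanin of lymphatic vessels and fibroblasts, had 101, 93.3 and 107 CPM in controls and 128, 159.6 and 146 CPM under the low dose, a difference of 0.52 (SE 0.10). The low-dose libraries were above every stress library for both genes.

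Of the other higher genes, Ampd3, an AMP deaminase, had 4.63, 4.24 and 3.48 CPM in controls, 6.82, 6.94 and 7.10 CPM under stress and 10.6, 7.47 and 13.2 CPM under the low dose. The 3 stress libraries were nearly equal to each other and lay between the highest control and the lowest low-dose value. The log2 fold changes were 1.34 (SE 0.29) against control and 0.75 for stress against control. Bin1, the membrane-bending protein amphiphysin 2, had 74.8, 70.1 and 70.02 CPM in controls and 108, 123 and 99.9 CPM under the low dose, a difference of 0.63 (SE 0.13). Hdhd2, which encodes a hydrolase-like protein, differed by 0.45 (SE 0.09) and BC031181, an uncharacterised gene, by 0.58 (SE 0.12), both with separated groups. Gm20594, a predicted gene, had 6.38, 8.60 and 9.85 CPM in controls and 16.1, 20.01 and 18.8 CPM under the low dose, a difference of 1.14 (SE 0.21); its identity as a separate transcript is uncertain. Rps14, a protein of the small ribosomal subunit, had 639, 674 and 722 CPM in controls and 864, 1441 and 1105 CPM under the low dose, a difference of 0.74 (SE 0.16). Replicate 2 of the low dose was the highest for Rps14 and replicate 1 the lowest, and processed copies of ribosomal genes make such values uncertain.

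MHC class II genes were lower in the low-dose tumours. All 10 tested members had a negative log2 fold change, 6 of them at an unadjusted p under 0.05 and none past the adjusted threshold, and in 8 the groups did not overlap; over all genes tested, 49.5% were lower, 6.73% were lower at an unadjusted p under 0.05 and 9.74% had low-dose libraries wholly below the controls. The list's median was -1.04, against 0.003 over all genes, and -1.05 without the control and low-dose libraries rich in muscle transcripts, control replicate 1 and low-dose replicate 3. The control libraries were close to each other and the low-dose libraries were not. H2-Eb1, the class II E beta chain, had 318, 317 and 331 CPM in controls and 210.5, 56.5 and 106 CPM under the low dose, a log2 fold change of -1.37 (SE 0.47). Replicate 1 stayed nearest the controls, replicate 2 was lowest and replicate 3 lay between. H2-Aa, the A alpha chain, had 412, 398 and 428 CPM in controls and 317, 82.9 and 159.7 CPM under the low dose, a difference of -1.14 (SE 0.46). H2-Ab1, its beta partner, had 317, 329 and 324 CPM in controls and 232, 80.5 and 145 CPM under the low dose, a difference of -1.08 (SE 0.42). For Ciita, the transactivator of the set, the values were 42.3, 36.6 and 44.9 CPM in controls and 31.4, 8.62 and 21.4 CPM under the low dose, and the log2 fold change of -1.01 (SE 0.49) had an unadjusted p of 0.0667. In the same order of libraries, all 4 genes were highest in replicate 1 and lowest in replicate 2 of the low dose. The peptide-loading gene H2-DMb2 had 5.15, 4.53 and 4.08 CPM in controls and 2.36, 0.862 and 2.89 CPM under the low dose, a difference of -1.17 (SE 0.45); it has a near-identical neighbour, H2-DMb1, so the split of reads between them is uncertain, and H2-DMb1 itself differed by -0.39.

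The promoters of these genes are shown to describe their letters. Promoters of 7 of the 10 genes were taken from RefSeq's table of GRCm38.p6 promoters. H2-Ab1 and Ciita had no entry there. The search did not cover every chromosome, so a promoter of Cd74 may have been missed. The 120 bases before the annotated start are printed 5′ to 3′ in the gene's direction for 4 members, and capitals mark the letters TGATTGG, a core form of the Y box that is a known part of class II promoters.
H2-Eb1, chr17:34305747-34305866, + strand: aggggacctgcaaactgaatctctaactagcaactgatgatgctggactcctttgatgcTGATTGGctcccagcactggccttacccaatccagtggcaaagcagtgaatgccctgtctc
H2-Aa, chr17:34287824-34287943, - strand: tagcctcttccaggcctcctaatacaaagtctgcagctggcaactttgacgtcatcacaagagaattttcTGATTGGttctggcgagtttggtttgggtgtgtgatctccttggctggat
H2-DMb2, chr17:34145129-34145248, + strand: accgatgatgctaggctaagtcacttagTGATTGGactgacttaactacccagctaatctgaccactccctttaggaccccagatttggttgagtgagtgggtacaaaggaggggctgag
H2-Ob, chr17:34238785-34238904, + strand: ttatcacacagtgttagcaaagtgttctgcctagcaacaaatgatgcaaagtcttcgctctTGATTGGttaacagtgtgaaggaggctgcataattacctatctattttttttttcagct
The 7 genes had 8 promoters in the table. TGATTGG or its complement lay in these 120 bases in 6 of the 8, starting 45 to 92 bases before the start, and in 5.15% of all 32851 windows of the same length in the table. The other 2 both belong to H2-DMa, a chain of the peptide-loading molecule, and held no match. Its first promoter is printed for comparison, with no capitals.
H2-DMa, chr17:34122712-34122831, + strand: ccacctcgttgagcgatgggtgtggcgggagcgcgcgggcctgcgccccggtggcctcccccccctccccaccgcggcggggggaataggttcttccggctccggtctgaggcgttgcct
H2-DMa, without a match, differed by -0.56 with separated groups, and H2-DMb1, with a match, by -0.39 with overlapping groups. A match describes the letters only and was not tested as a binding site. Any link between a match and the difference of a gene was not tested.

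Dendritic cell markers were mostly lower too. Of 15 tested, 11 were lower (49.5% of all genes), 4 of them at an unadjusted p under 0.05 (Dnase1l3, Itgax, Batf3 and Zbtb46). In 5 the groups did not overlap. Over all genes, 6.73% were lower at that p and 9.74% had low-dose libraries wholly below the controls. The list's median was -0.80, and -0.42 without low-dose replicate 2. Itgax, the CD11c integrin chain, had 35.9, 34.98 and 33.7 CPM in controls and 10.6, 5.52 and 19.2 CPM under the low dose, a log2 fold change of -1.57 (SE 0.50). Zbtb46, a transcription factor of classical dendritic cells, had 15.9, 18.9 and 16.5 CPM in controls and 15.6, 10.1 and 10.8 CPM under the low dose, a difference of -0.49 (SE 0.18). Both genes had groups that did not overlap, with a narrow gap for Zbtb46. Batf3, needed by cross-presenting dendritic cells, was below 1 CPM in all 6 libraries and differed by -1.39 (SE 0.51). Flt3, the receptor for the growth factor of dendritic cells, had 0.468, 1.86 and 0.540 CPM in controls and 0.787, 0.230 and 0.0602 CPM under the low dose, with overlapping groups and a difference of -1.38 (SE 0.72). Irf8, Clec10a, Ccl17 and Fscn1 were the 4 markers with a positive value, from 0.07 to 0.17. In bulk tissue, fewer dendritic cells and less RNA per cell cannot be told apart. The list's median was 0.46 for stress against control, -1.03 for low dose against stress and -0.98 for low dose against high dose, contrasts that share libraries with each other. Against the high dose 8 of the 15 markers were lower at an unadjusted p under 0.05, against 2.75% of all genes.

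Genes of macrophages and of lysosomes tended the other way. Of 19 macrophage and monocyte markers 18 were higher (50.5% of all genes). Of these, 4 (Trem2, Lyz2, Msr1 and Cd68) had an unadjusted p under 0.05 (6.45% of all genes). The list's median of 0.35 ranged from 0.12 to 0.55 when each of the 6 libraries was left out. The lowest was without low-dose replicate 1. The same median was 0.28 for stress against control, 0.23 for high dose against control and 0.06 for low dose against stress. These contrasts share libraries. Lyz2, the lysozyme of macrophages, had 572, 510.4 and 521 CPM in controls and 1362, 1051 and 902 CPM under the low dose, a log2 fold change of 1.05 (SE 0.30). Every low-dose library was well above every control for Lyz2, though lysozyme has a near-identical copy, Lyz1, and reads may be split between them. Lyz1 was higher as well, with separated groups and a log2 fold change of 1.25. Its mean was 30.6 CPM in controls and 72.7 CPM under the low dose. Trem2, a lipid receptor of tissue macrophages, had 13.4, 13.4 and 13.5 CPM in controls and 30.96, 27.9 and 18.2 CPM under the low dose, a difference of 0.94 (SE 0.25). Msr1, a scavenger receptor, had 60.5, 57.1 and 58.97 CPM in controls and 109, 76.2 and 92.4 CPM under the low dose, a difference of 0.65 (SE 0.22). The pan-macrophage gene Adgre1 did not separate, with 33.5, 35.6 and 24.4 CPM in controls and 64.00, 32.9 and 34.9 CPM under the low dose. Of 27 lysosome and autophagy genes, 23 were higher (50.5% of all genes), 7 at an unadjusted p under 0.05 (6.45% of all genes). They had a median of 0.28, and 0.18 without low-dose replicate 2. Ctsd, the lysosomal protease cathepsin D, led them with 296, 267 and 289 CPM in controls and 501, 731 and 439 CPM under the low dose, a difference of 0.97 (SE 0.22). It passed by DESeq2 with an adjusted p of 0.00715, and its low-dose libraries were all above the controls. Chil3, which encodes the secreted lectin Ym1 of alternatively activated macrophages, is named after its values were seen. It had 2.75, 1.45 and 1.62 CPM in controls and 7.87, 3.28 and 84.2 CPM under the low dose, so that its log2 fold change of 4.03 (SE 1.19) was set largely by replicate 3, and it has close homologues.

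Macrophage and class II genes did not line up library by library. The class II score, the mean of the centred log2 CPM of its members, was 0.45, 0.33 and 0.37 in controls and -0.04, -1.42 and -0.59 under the low dose. It was 0.92, 0.10 and -0.52 in the stress libraries and 0.08, 0.29 and 0.03 in the high-dose libraries. Stress replicate 3 thus lay within the low-dose range. The macrophage score was -0.08, -0.19 and -0.37 in controls and 0.54, -0.19 and 0.18 under the low dose. Replicate 2 of the low dose was the lowest of the 6 in class II and within the control range in macrophage genes, while replicate 1 was the highest in macrophage genes and the low-dose library nearest the controls in class II. The part of these markers in each other's values was not tested.

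**Figure D2:**
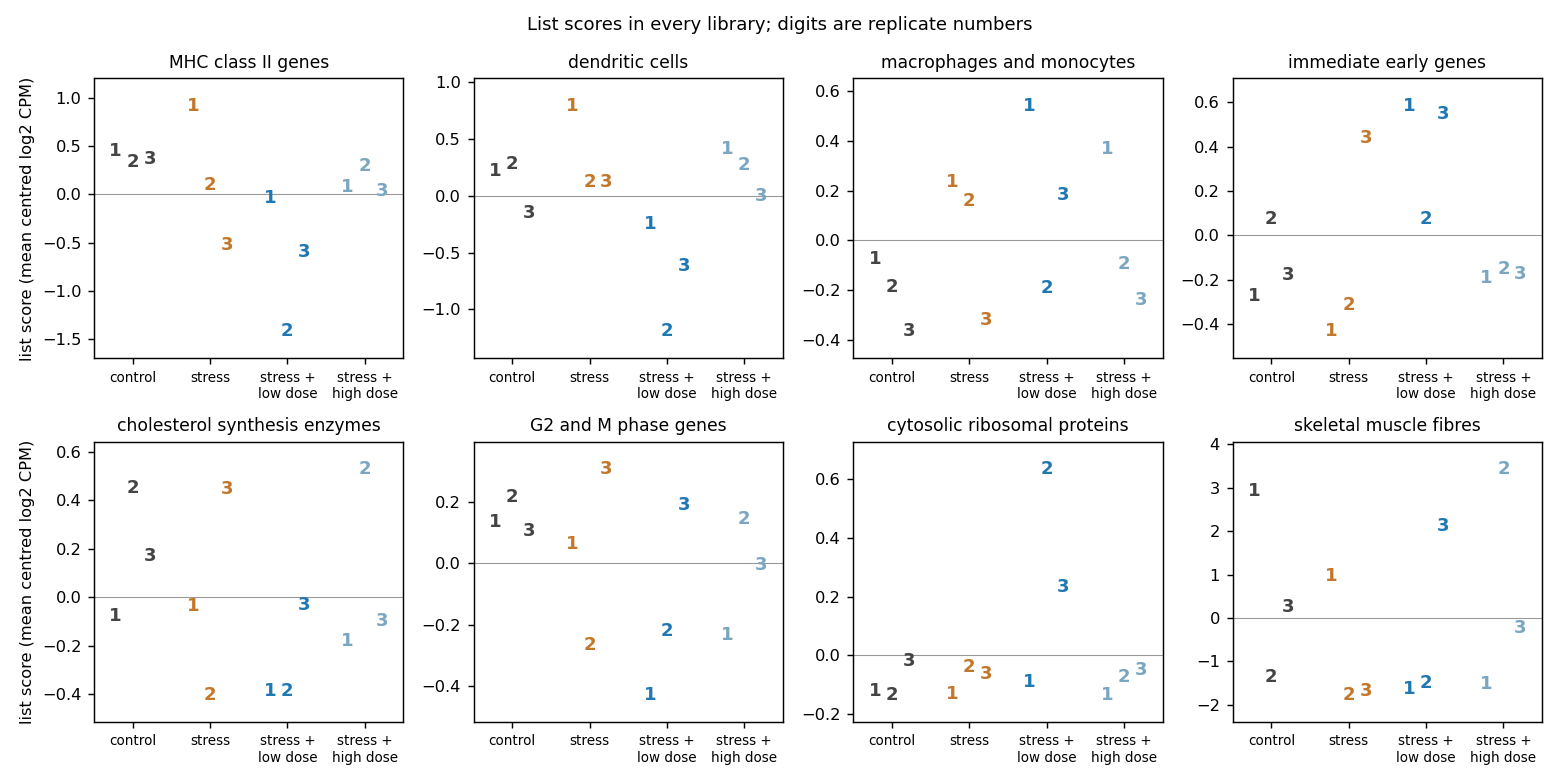
List scores (mean centred log2 CPM of the members, vertical axes) in every library for 8 lists, by group, with the replicate number as the symbol. Low-dose replicate 2 is lowest in MHC class II (-1.42) and dendritic genes (-1.19) and highest in ribosomal protein genes (0.64), and muscle genes are high in control 1, low-dose 3 and high-dose 2.

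Most sterol synthesis and mitosis genes were lower, though the list scores of the 2 groups overlapped. Of 23 cholesterol synthesis genes, 22 had a negative value, 8 of them at an unadjusted p under 0.05 and 9 with separated groups, where the shares of all genes were 49.5%, 6.73% and 9.74%. The median was -0.48 (-0.65 to -0.33 with single libraries left out), and -0.74 without both muscle-rich libraries. It was -0.13 for stress against control and -0.08 for high dose against control. The list's score was -0.08, 0.45 and 0.17 in controls and -0.39, -0.39 and -0.03 under the low dose. In the stress libraries it was -0.04, -0.40 and 0.45. Hmgcs1, the enzyme that makes HMG-CoA, had 265, 441 and 325 CPM in controls and 225, 200.2 and 217 CPM under the low dose, a log2 fold change of -0.68 (SE 0.26). Its 3 low-dose libraries were close to each other, and control 2 was the highest of the 6. Insig1, the sterol-sensing regulator of the SREBP factors, had 124, 188 and 149 CPM in controls and 94.3, 91.2 and 104 CPM under the low dose, a difference of -0.67 (SE 0.22). Sc5d, a late enzyme of the pathway, had 52.7, 64.9 and 61.02 CPM in controls and 42.8, 38.98 and 46.2 CPM under the low dose, a difference of -0.48 (SE 0.16). The transcription factor Srebf2 differed by -0.51 (SE 0.18), with separated groups. Of 13 fatty acid synthesis genes 11 were lower (49.5% of all genes). Of these, 1 had an unadjusted p under 0.05, the desaturase Scd2 at -0.51 (SE 0.22), a share close to the 6.73% of all genes. Their median was -0.29, and it was -0.48 without both muscle-rich libraries and -0.18 with the length trend removed.

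Of 24 genes of G2 and mitosis, 23 were lower (49.5% of all genes), 8 at an unadjusted p under 0.05 (6.73% of all genes). The list's median was -0.26, with -0.09 for stress against control and -0.16 for high dose against control. Its score was 0.13, 0.21 and 0.11 in controls and -0.43, -0.22 and 0.19 under the low dose. Mki67, the proliferation marker, had 701, 813 and 665 CPM in controls and 444, 385 and 596 CPM under the low dose, a log2 fold change of -0.61 (SE 0.19). Low-dose replicate 3 was nearest the controls, and the groups did not overlap. Cenpe, a kinetochore motor, had 173, 192 and 164 CPM in controls and 119, 89.7 and 150.2 CPM under the low dose, a difference of -0.56 (SE 0.19). Top2a, the mitotic topoisomerase, had 1085, 1073 and 991 CPM in controls and 619, 673 and 1040.4 CPM under the low dose, with overlapping groups. Without low-dose replicate 3 the median of the list was -0.45, without replicate 1 it was -0.14, and without both muscle-rich libraries it was -0.47. With the length trend removed Mki67 was at -0.33 and Cenpe at -0.32. Genes of DNA replication and S phase were split: 12 of 25 were higher (50.5% of all genes). None reached an unadjusted p under 0.05 in either direction, against 6.45% of all genes higher and 6.73% lower.

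Immediate early genes, which cells switch on within minutes of a stimulus, were higher in 22 of 24 cases (50.5% of all genes), 6 at an unadjusted p under 0.05 (6.45% of all genes), with a median of 0.50. Ier2 had 39.9, 48.2 and 40.4 CPM in controls and 97.4, 74.2 and 69.2 CPM under the low dose, a log2 fold change of 0.91 (SE 0.26). Junb, an AP-1 subunit, had 75.6, 95.5 and 84.02 CPM in controls and 145, 105 and 135 CPM under the low dose, a difference of 0.60 (SE 0.21). Fos, its partner, had 10.8, 34.5 and 13.8 CPM in controls and 135, 15.8 and 37.99 CPM under the low dose, with overlapping groups and a wide spread set by replicate 1. Dusp1, a phosphatase that is both an immediate early and a glucocorticoid-induced gene, had 34.4, 60.03 and 49.8 CPM in controls and 167, 72.7 and 82.4 CPM under the low dose, a difference of 1.16 (SE 0.46).

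The stress hormone lists were less uniform. Of 18 glucocorticoid-induced genes 13 were higher (50.5% of all genes), 4 at an unadjusted p under 0.05 (6.45% of all genes), with a median of 0.25 that was 0.10 without low-dose replicate 1 and 0.15 with the length trend removed. Cebpd, an acute phase transcription factor, had 6.27, 6.80 and 7.15 CPM in controls, 11.02, 13.8 and 17.99 CPM under stress and 15.8, 18.3 and 8.07 CPM under the low dose. Stress and low-dose libraries all lay above the controls, and the log2 fold change was 1.06 (SE 0.31) for low dose and 1.08 for stress, each against control. Sgk1, a glucocorticoid-induced kinase, differed by 0.63 (SE 0.25) and had 0.78 for stress against control. Fkbp5, the classic glucocorticoid receptor target, had 306, 292 and 224 CPM in controls and 339, 220.2 and 203 CPM under the low dose, and the groups overlapped. The receptor Nr3c1 itself had 111, 107 and 109 CPM in controls and 120.3, 96.01 and 88.3 CPM under the low dose, also overlapping. Hsd11b1, the enzyme that regenerates active glucocorticoid, had 1.99, 2.09 and 1.56 CPM in controls and 5.62, 3.97 and 2.47 CPM under the low dose, a difference of 1.09 (SE 0.39). In the receptor list 4 of 5 tested genes were higher (50.5% of all genes), 1 at an unadjusted p under 0.05 (6.45% of all genes), Hsd11b1. The list's median of 0.21 was -0.02 without low-dose replicate 1. Of 13 cAMP and CREB targets 7 were higher, a share close to the 50.5% of all genes. At an unadjusted p under 0.05, 2 of them were higher (6.45% of all genes) and 1 was lower (6.73% of all genes). Their median of 0.43 was 0.002 without low-dose replicate 1.

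Antioxidant genes under the transcription factor Nrf2 were higher in 16 of 18 cases (50.5% of all genes), 6 at an unadjusted p under 0.05 (6.45% of all genes), with a median of 0.31. Srxn1, a sulfiredoxin, had 49.5, 49.6 and 49.5 CPM in controls and 63.6, 65.7 and 62.2 CPM under the low dose, a log2 fold change of 0.37 (SE 0.11). Controls and low-dose libraries were each tight and stood apart for Srxn1. Hmox1, heme oxygenase 1, had 29.4, 44.2 and 35.9 CPM in controls and 69.9, 85.6 and 56.7 CPM under the low dose, a difference of 0.95 (SE 0.45), and the high-dose libraries had 159, 89.7 and 36.3 CPM. Of 26 type I interferon stimulated genes, 25 were lower (49.5% of all genes) and in 14 the groups did not overlap (9.74% of all genes). Of the 26, 1 reached an unadjusted p under 0.05, a smaller share than the 6.73% of all genes: Eif2ak2, the antiviral kinase PKR, at -0.40 (SE 0.17), and at -0.21 with the length trend removed. Ifit1 had 20.4, 18.1 and 25.6 CPM in controls, 13.1, 9.60 and 12.5 CPM under the low dose and 21.7, 72.9 and 4.47 CPM under stress. The stress libraries spread over more than the whole range of the control and low-dose libraries, and the fit uses 1 estimate of the spread for all groups.

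Of 16 genes in the neutrophil list 5 passed the filter on counts, the chemokines Cxcl1, Cxcl2 and Cxcl3 (the last at 2.83), the receptor Csf3r at -0.09 and the collagenase Mmp8 at 0.79, both of these with overlapping groups. Cxcl1, which attracts neutrophils, had 1.46, 3.02 and 1.56 CPM in controls and 9.89, 4.31 and 7.04 CPM under the low dose, a log2 fold change of 1.81 (SE 0.66). Cxcl2 had 0.761, 2.85 and 1.80 CPM in controls and 9.38, 4.08 and 3.13 CPM under the low dose, a difference of 1.61 (SE 0.82) with an unadjusted p of 0.0744. Both had separated groups, and stress replicate 3 reached 13.3 CPM of Cxcl1. The granule and surface genes S100a8, S100a9 and Ly6g stayed below 1 CPM in every library, with at most 0.575, 0.745 and 0.0583 CPM. Among fibroblast genes 12 of 13 were higher (50.5% of all genes), 2 at an unadjusted p under 0.05 (Dpt and Clec3b, against 6.45% of all genes). The list's median was 0.73, and 0.43 without low-dose replicate 3. It was 0.40 for stress against control, 0.71 for high dose against control and 0.35 for low dose against stress. Dcn, the matrix proteoglycan decorin, had 244, 245 and 138 CPM in controls and 777, 684 and 238 CPM under the low dose, a difference of 1.44 (SE 0.66). Low-dose replicate 3 lay within the control range for Dcn. Mmp3, the metalloproteinase stromelysin 1, had 0.527, 0.988 and 0.420 CPM in controls and 3.60, 2.41 and 4.27 CPM under the low dose, a difference of 2.39 (SE 0.73) from low counts. Lists of T cells and cytotoxic lymphocytes had 10 of 15 and 8 of 17 members higher (50.5% of all genes). None had an unadjusted p under 0.05, against 6.45% of all genes higher and 6.73% lower.

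**Figure D3:**
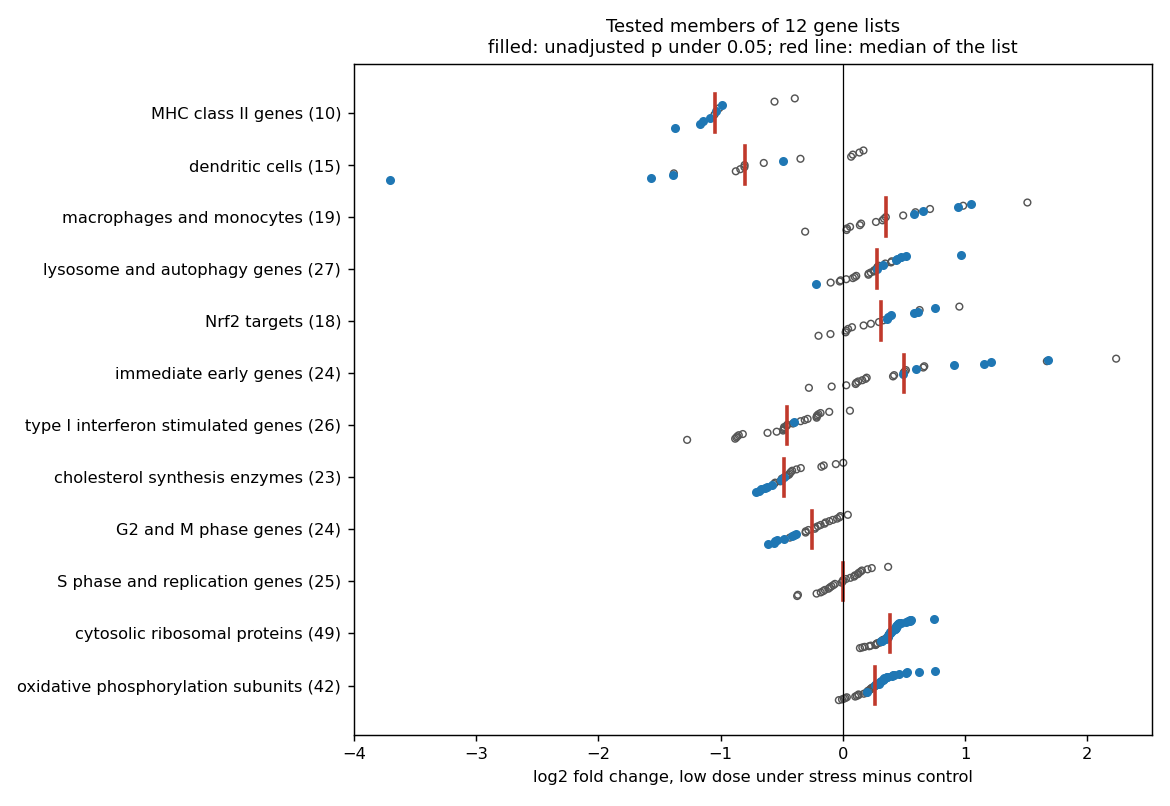
Log2 fold changes, low dose minus control (horizontal axis), of every tested member of 12 lists (rows, with the number of members), filled where the unadjusted p was under 0.05, with the list's median as a red line. MHC class II members lie from -1.37 to -0.39 and ribosomal protein members from 0.14 to 0.74, while S phase members spread on both sides of 0.

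Ribosomal protein and respiratory chain genes were higher as sets, and here the length of the transcript moved with the difference. All 49 cytosolic ribosomal protein genes had a positive value, as did 50.5% of all genes. Of these, 33 had an unadjusted p under 0.05, as did 6.45% of all genes in this direction. In 6 of the 49 the low-dose libraries lay wholly above the controls, against 7.65% of all genes. The list's score in low-dose replicate 1 was -0.09, within the control values of -0.12, -0.13 and -0.02. The median was 0.38, and 0.17 without low-dose replicate 2. Against the high dose 38 of the 49 were higher at an unadjusted p under 0.05, against 3.64% of all genes. Of 42 nuclear-encoded subunits of oxidative phosphorylation 40 were positive (50.5% of all genes), 21 at an unadjusted p under 0.05 (6.45% of all genes). In 14 the low-dose libraries lay wholly above the controls (7.65% of all genes). The median was 0.27, and 0.15 without low-dose replicate 2. The score of low-dose replicate 1 was -0.07, within the control values of -0.09, -0.10 and -0.04. Rpl34, of the large subunit, had 248, 240.4 and 254 CPM in controls and 284, 473 and 331 CPM under the low dose, a log2 fold change of 0.55 (SE 0.15). Ndufa2, of respiratory complex I, had 24.5, 25.5 and 29.5 CPM in controls and 34.2, 58.5 and 41.4 CPM under the low dose, a difference of 0.75 (SE 0.18). Replicate 2 was the highest low-dose library for both and replicate 1 the lowest. Over all genes, the median difference ran from 0.22 in the fifth with the shortest transcripts to -0.19 in the fifth with the longest, whereas for stress against control it ran from 0.02 to -0.01. Deviations of a library from the mean correlated with log length across genes at -0.56 in low-dose replicate 2, -0.19 in replicate 3 and 0.06 in replicate 1, and at 0.08 to 0.31 in the controls; genes are not independent replicates.

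When each library's trend with length was removed, the median was 0.08 for ribosomal protein genes, with 3 of 49 at an unadjusted p under 0.05, and 0.02 for oxidative phosphorylation, with 3 of 42. The count of all genes at an unadjusted p under 0.05 was then 989 in place of 1773, with 564 higher (4.19%) and 425 lower (3.16%). The 652 genes called by edgeR without low-dose replicate 1 became 0 when the trend was removed as well. MHC class II genes had a median of -1.18 and dendritic markers of -0.73 after the removal, cholesterol synthesis -0.44, immediate early genes 0.47 and macrophage markers 0.41. Long genes among the lower ones moved toward 0: Syne2 went from -0.67 to -0.29, and Fat1, the giant protocadherin named after its values were seen, from -0.73 to -0.40. Sfmbt2 went from -0.52 to -0.27. Higher genes with short transcripts also moved toward 0: Gm20594 went from 1.14 to 0.68, Rps14 from 0.74 to 0.40 and BC031181 from 0.58 to 0.35. Dnase1l3 had -3.64, Serpina3n 1.44 and Ccl9 0.86 after the removal, close to their values before it. Where the length trend comes from was not tested.

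**Figure D4:**
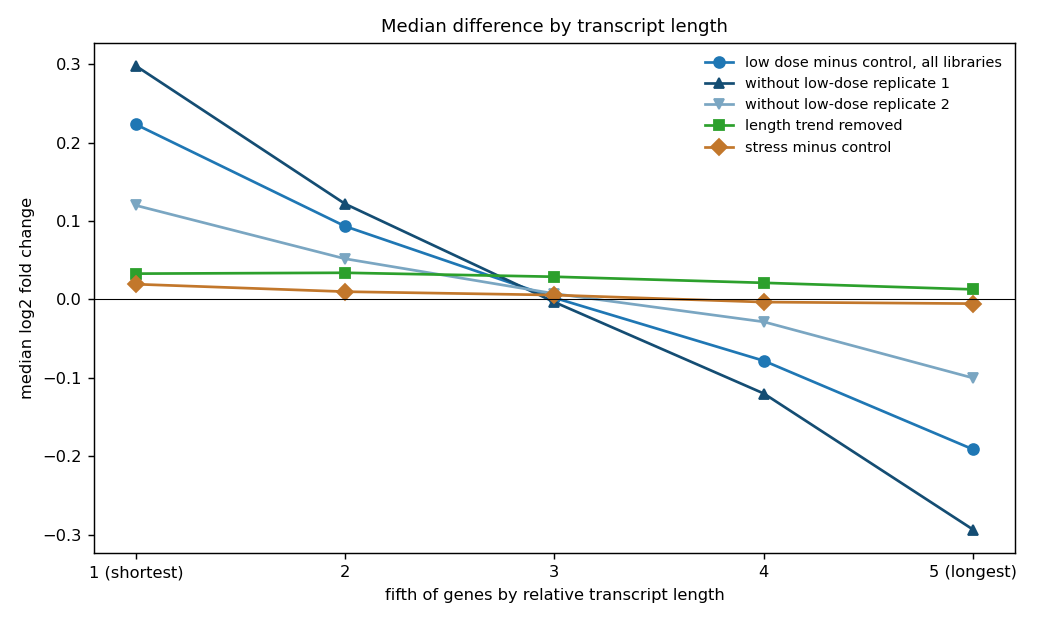
Median log2 fold change (vertical axis) in 5 equal groups of genes ordered by relative transcript length (horizontal axis), for low dose minus control with all libraries, without low-dose replicates 1 or 2, with the length trend removed, and for stress minus control. The low-dose line falls from 0.22 to -0.19 and is steeper without replicate 1, and the stress line stays near 0.

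The side of 0 on which the hypoxia median lay depended on a single library. Of 23 hypoxia genes 18 were higher (50.5% of all genes), none at an unadjusted p under 0.05 (6.45% of all genes). Their median was 0.24, and it was 0.50 without low-dose replicate 1 and -0.20 without replicate 3. Vegfa, the main vessel growth factor, had 379, 432 and 409.8 CPM in controls and 269.8, 429 and 536 CPM under the low dose. Replicate 1 was below the controls, replicate 2 within them and replicate 3 above. Of 20 heat shock chaperones 16 were higher (50.5% of all genes) and 3 had an unadjusted p under 0.05 (6.45% of all genes). Hspa8, the constitutive Hsc70, had 3224, 2924 and 3051 CPM in controls and 3870.0, 4491 and 4349 CPM under the low dose, a difference of 0.47 (SE 0.17). The inducible and near-identical genes Hspa1a and Hspa1b differed by -0.92 (SE 0.65) and -0.43 (SE 0.53).

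**Figure D5:**
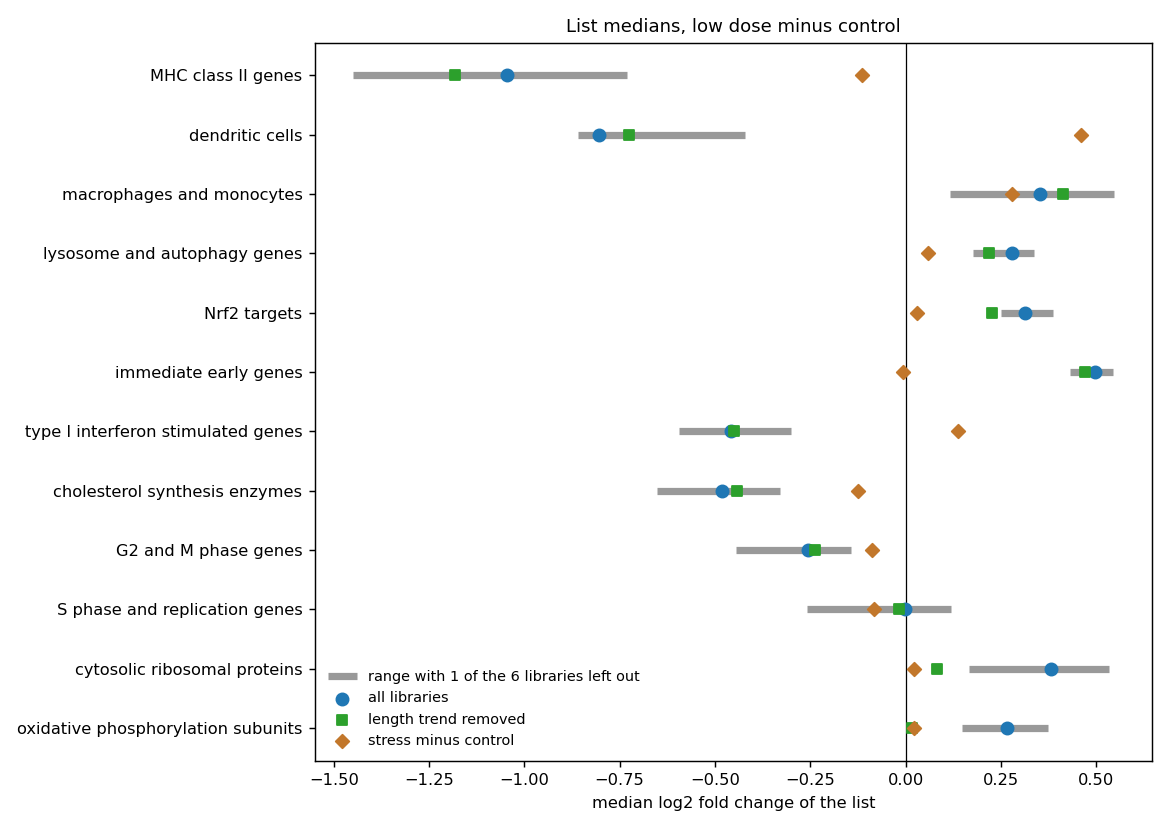
Median log2 fold change (horizontal axis) of 12 lists (rows) for low dose minus control with all libraries (circles), the range with each of the 6 libraries left out (bars), with the length trend removed (squares), and for stress minus control (diamonds). The bars of the class II and dendritic lists stay below 0 (-1.45 to -0.73 and -0.86 to -0.42), and the squares of the ribosomal (0.08) and respiratory lists (0.02) lie near 0.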

How the data were processed

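RNA sequencing libraries of subcutaneous tumours were compared between the low-dose and control groups, 3 libraries each, as the labels name them. Per the labels' protocols, poly(A) RNA with an integrity number above 7 went into stranded, paired-end libraries. Per the submitters' processing notes, the tools were cutadapt 1.9, HISAT2 2.0.4, StringTie 1.3.4d, DESeq2 and edgeR, with the build GRCm38.p6; the counting options are not given in the sources used here. The estimated counts are per gene as deposited by the authors, and 11.7% to 12.5% of values in a library were not whole. The design had assumed whole counts, so these values were rounded. FPKM values, which the authors had scaled for length and depth, served to choose named genes and relative lengths. The deposited TPM values were used only to check units.

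Genes were kept with filterByExpr at a minimum count of 10. Quasi-likelihood tests of edgeR 4.0.16 (robust, 2-sided, TMM factors, R 4.3.3) were fitted to all 12 libraries in 4 groups, with 8 residual degrees of freedom, and p-values were adjusted over every gene tested (Benjamini-Hochberg). The SE of the low-dose difference had a median of 0.164 over genes. The 47 gene lists had 897 entries, 875 matched by symbol and 4 by synonym, with 18 absent; they are described by counts and medians only. Scores used a prior count of 2. The scripts were tested on simulated data. The comparison, members and lists were chosen with earlier results of these data known.

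By rule, named genes were those past the adjusted threshold, filled to 10 per direction by the smallest unadjusted p where fewer passed, with a mean FPKM in the higher group of 1 or more and groups that did not overlap. For each list its first 2 members and up to 4 with the smallest p could be named. Alternatives were DESeq2 1.42.0, limma-voom 3.58.1 with quality weights, RLE factors, a minimum count of 50, no filter, a fit of the 6 libraries alone, a block for the replicate number, each library left out, both muscle-rich libraries left out, the muscle score as a covariate, and removal of each library's trend with transcript length. That trend was fitted by loess (span 0.3) to genes whose mean log2 CPM was above 1, with length taken from the ratio of count to FPKM. Its combinations with a low-dose library left out were chosen after seeing the data.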

Additional observations from a re-analysis of the deposited data

How the results depend on the processing

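The count of genes past the adjusted threshold was 0 by edgeR in the fit of all libraries and 0 by limma-voom, with RLE factors, with no filter, at a minimum count of 50, with only the 6 libraries compared, with the muscle score as a covariate, without both muscle-rich libraries and with the length trend removed. It was 68 by DESeq2. A different criterion, an unadjusted p under 0.05 by edgeR with a log2 fold change of 1 or more in either direction, was met by 178 of 13453 genes. That criterion makes no adjustment for the number of genes tested. With single libraries left out the count past the adjusted threshold ran from 0 to 652, the latter without low-dose replicate 1. The count at an unadjusted p under 0.05 then ran from 900 to 3525 around 1773. That count was 989 with the length trend removed, and 695 when low-dose replicate 2 was left out as well, an alternative chosen after seeing the data. RLE factors called 1003 higher and 789 lower at an unadjusted p under 0.05, DESeq2 1058 and 846, and TMM factors 868 and 905. The median of all genes was 0.003 with TMM and 0.02 with RLE factors.

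The replicate numbers did not pair the libraries: for 5 of 12 libraries the best-correlated library had the same number, and control and low-dose libraries of the same number correlated at -0.14, 0.04 and -0.03. With the replicate number as a block, 0 genes passed and 1678 had an unadjusted p under 0.05.

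Of 78 genes followed over 18 alternatives, 75 kept their direction in all of them. They include the 20 chosen in these same libraries by p, level and separated groups, which leaves little room for a reversal. Of 846 list medians, 763 moved by less than the spread between libraries. The genes that changed direction were Fkbp5, Nr3c1 and Vegfa, and the cause was not tested. With single libraries left out, Fkbp5 ran from -0.37 to 0.031 and Vegfa from -0.22 to 0.25. Without both muscle-rich libraries Fkbp5 was at 0.12, Nr3c1 at 0.0029 and Vegfa at -0.27, and with the replicate block Vegfa was at -0.012. With the length trend removed Nr3c1 was at 0.11, with low-dose replicate 1 left out as well Nr3c1 was at 0.072, and with replicate 2 left out Fkbp5 was at 0.025 and Nr3c1 at 0.040. The number of libraries and the spread of the low-dose group limit these comparisons.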

Other observations

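Lama5, Tjp1 and Cgn encode basement membrane and junction proteins that no list covered, and they were chosen after their values were seen, as were Ahnak and F13a1. Lama5, the laminin alpha 5 chain and a ligand of the integrin that holds Itga6, had 185, 159 and 225 CPM in controls and 96.9, 134 and 88.6 CPM under the low dose, a log2 fold change of -0.83 (SE 0.21). Tjp1, the tight junction scaffold ZO-1, had 264, 283 and 248 CPM in controls and 197, 132 and 193 CPM under the low dose, a difference of -0.60 (SE 0.15). Cgn, the tight junction protein cingulin, had 4.51, 3.78 and 6.91 CPM in controls and 2.47, 1.44 and 1.44 CPM under the low dose, a difference of -1.50 (SE 0.35). In each of the 3 genes every low-dose library was below every control library, and DESeq2 gave adjusted p-values of 0.0465, 0.0375 and 0.0293, while edgeR gave 0.316, 0.316 and 0.316. With the length trend removed the values were -0.47, -0.39 and -1.37. Ahnak, a giant scaffold protein under the plasma membrane with a transcript 4.92 times the median length, had 7727, 7507 and 6831 CPM in controls and 5726, 2952 and 4158 CPM under the low dose, and 5671, 6335 and 5297 CPM under stress.

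F13a1, the coagulation factor XIII A chain made by macrophages and platelets, was also outside the lists. It had 33.4, 24.00 and 14.7 CPM in controls and 105, 48.4 and 57.98 CPM under the low dose, a log2 fold change of 1.55 (SE 0.40) with an adjusted p of 0.00901 by DESeq2 and 0.321 by edgeR. Il11, a cytokine of the interleukin-6 family, had 0.995, 1.10 and 1.20 CPM in controls and 1.52, 2.59 and 3.19 CPM under the low dose, a difference of 1.14 (SE 0.33). All 3 low-dose libraries were above every library of the other 3 groups for Il11, although the counts were low.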
